A study of Mus musculus with 2 samples.

Results

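Complement and coagulation genes were followed in cultured bone marrow-derived macrophages from calpain-6-deficient mice (Capn6-Ko) and from mice that are wild type for calpain-6 (Capn6-Wt). The set holds 39 genes of 20660 named genes on the array, 18 of complement and 21 of coagulation. They were chosen by name as genes of these pathways, with earlier results of these data known. Their counts beside those of all genes are therefore descriptions and not tests. A non-control probe was taken as that of a member where its RefSeq accession belonged to the gene. Marrow cells were flushed from the femurs of male mice, grown in 10% serum, and driven to macrophages by M-CSF at 50 ng/mL, with TNF-α, an inflammatory cytokine, at 10 ng/mL in the medium of both cultures. RNA was taken at day 3 by one label and at day 4 by another. The design text states 4 mice, pooled, without saying whether this is per group, and neither the age of the mice nor how calpain-6 was inactivated is given in the sources used here. Each group is 1 array, so there is no replicate, no test between genotypes and no p-value.

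Complement is a set of plasma and membrane proteins that mark microbes and debris for uptake. C1q starts the classical pathway, C3 is the point where all routes meet, the alternative pathway amplifies C3 cleavage, and membrane regulators keep host cells from attack. Coagulation is a cascade of proteases that tissue factor starts and that ends in a cross-linked fibrin clot, held in check by anticoagulants such as thrombomodulin, protein S and tissue factor pathway inhibitor. The liver makes most of these proteins for plasma, whereas macrophages are a main source of C1q and also make C3, properdin and clotting factors.

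The complement genes were slightly higher in Capn6-Ko macrophages, and the coagulation genes were not shifted as a group. Of 18 complement genes 17 were measured, 15 of them higher and 2 lower in Capn6-Ko, with a median log2 difference (Capn6-Ko minus Capn6-Wt) of 0.13. The 15 include C1ra, whose probes disagree in sign, and with the brightest probe of each gene 14 of 17 were higher. Of the 15, C1qa, C1ra, C2, Cd55, Cd59a and Serping1 differed by less than the error expected from repeated spots. So did the 2 lower genes. Of 21 coagulation genes 15 were measured, 7 higher and 8 lower, with a median of -0.0077. Over all 12875 measured genes the median was -0.0056, and 47.8% were higher and 52.2% lower by any amount. Of 11 measured macrophage markers, 8 were higher and 3 lower, with a median of 0.19. Their part in the complement values was not tested. The largest differences were those of the fibrin cross-linking factor F13a1 (0.51), tissue factor F3 (0.45), the C5a receptor C5ar1 (0.39) and, in the other direction, thrombospondin Thbs1 (-0.38). The F3 value rests on a dim probe, and that of F13a1 is the mean of a bright and a dim probe.

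A gene was measured where most spots of at least 1 probe were well above background on both arrays, which held for 32 of the 39 genes and 40 of their 49 probes. Its value is the mean over those probes, each as log2 of the processed signal after dividing by the 75th percentile of all non-control spots there. That percentile was 372 on the Capn6-Ko array and 377 on the Capn6-Wt array, so a ratio of printed signals is close to the scaled fold but not equal to it. The ± after a difference is the SD expected from repeated spots at that level, the spot SD, which covers spotting and scanning but not mice, culture or RNA extraction. Of the 32 measured genes, 15 differed by less than 1 spot SD and 17 by more. Genes were counted as past the set size where the log2 difference reached 0.32 in either direction. By it 5 of the 32 measured genes were higher, where 2.64% of all measured genes were (Cfb, Cfd, C5ar1, F3 and F13a1), and 1 was lower (Thbs1), where 5.53% were. With each array scaled to its median instead, 7 were higher and 0 lower, where 558 of all 12875 measured genes were higher and 535 lower.

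**Figure D1:**
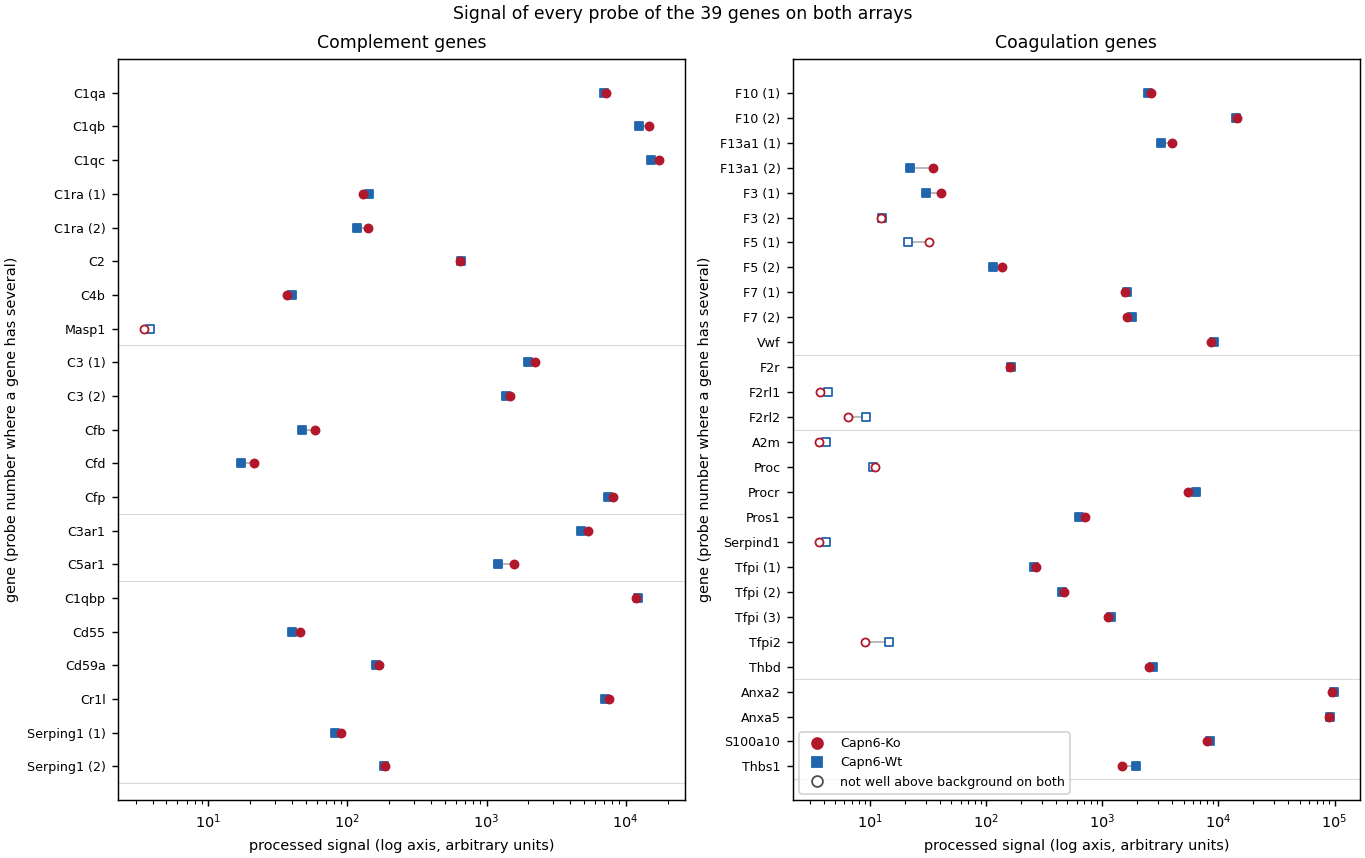
Processed signal (log axis, arbitrary units) of every probe of the 39 genes on the Capn6-Ko array (red circles) and the Capn6-Wt array (blue squares), grouped by role. Open symbols mark probes that were not well above background on both arrays. The pairs lie close together, and the widest filled pairs belong to the dim probes of F13a1 and F3.

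Of 59305 non-control spots, 31304 (52.8%) exceeded background clearly in Capn6-Ko and 30656 (51.7%) did in Capn6-Wt. The arrays shared a slide and a scan, and 0 spots were saturated. The single probe of Capn6 had signals of 8.65 on the Capn6-Ko array and 3.93 on the Capn6-Wt array both too dim to be called above background, so it does not check the labels. Macrophage markers were present: 11 of 11 on the array were measured, 8 of them higher in Capn6-Ko (median 0.19). Of the stromal fibroblast markers, 14 of 14 measured were lower in Capn6-Ko (median -0.51), 8 of 10 megakaryocyte and platelet markers were higher (median 0.24), and 7 of 8 type I interferon response genes were higher (median 0.36). Of 7 hepatocyte markers on the array, albumin among them, 0 were well above background on both arrays. In bulk RNA, fewer cells of a type and less RNA per cell cannot be told apart.

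C1q, the molecule that recognises bound antibody, is built of 3 chains encoded by C1qa, C1qb and C1qc, which follow each other on chromosome 4 in the RefSeq order with no other protein-coding gene between them. C1qb had a signal of 14839 on the Capn6-Ko array and 12565 on the Capn6-Wt array, a log2 difference of 0.26 ± 0.083. C1qc was read from 10 spots on the Capn6-Ko array, with signals from 16640 to 17932 (median 17314), and from 8 unflagged spots on the Capn6-Wt array, from 14441 to 15889 (median 15259). The spots of the arrays did not overlap, and the log2 difference was 0.20 ± 0.028. C1qa, with signals of 7218 in Capn6-Ko and 6969 in Capn6-Wt, was at 0.069 ± 0.078, inside its spot error. All 3 chains lay on the same side, with C1qb and C1qc beyond the spot error.

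The promoters of the adjacent genes C1qb and C1qc are shown because both genes were higher by more than the spot error. Each window runs from 250 bases before to 50 after the gene start in RefSeq (GRCm38.p6), and C1qa is not in the table. Capitals here and in the windows below mark matches, on either strand, to any of 7 motifs listed further on. In both windows the only match is the PU box GAGGAA, a core bound by the myeloid factor PU.1, which C1qc carries on the other strand.
C1qb (chr4:136886151-136886450, reverse strand): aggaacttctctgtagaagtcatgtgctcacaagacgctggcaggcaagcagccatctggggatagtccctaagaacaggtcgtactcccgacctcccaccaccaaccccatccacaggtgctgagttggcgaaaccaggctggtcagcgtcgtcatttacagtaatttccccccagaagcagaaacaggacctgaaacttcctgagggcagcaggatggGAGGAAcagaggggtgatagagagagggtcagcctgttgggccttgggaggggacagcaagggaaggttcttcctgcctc
C1qc (chr4:136892865-136893164, reverse strand): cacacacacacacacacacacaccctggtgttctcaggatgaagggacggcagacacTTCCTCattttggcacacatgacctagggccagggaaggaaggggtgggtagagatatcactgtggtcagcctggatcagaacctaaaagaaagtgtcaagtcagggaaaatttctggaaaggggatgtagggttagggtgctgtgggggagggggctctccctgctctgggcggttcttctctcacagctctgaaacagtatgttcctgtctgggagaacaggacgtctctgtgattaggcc

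Of the other early members of the classical and lectin pathways, C1ra, C2, C4b and Masp1, those measured had no shared direction. C1ra, a protease of the C1 complex, has probes that disagreed: one had signals of 130 in Capn6-Ko and 143 in Capn6-Wt (-0.12 ± 0.14), and the other 141 in Capn6-Ko and 118 in Capn6-Wt (0.28 ± 0.15). The gap between these probes of C1ra, 0.40, was wider than the spot SD of such a gap, 0.21, so the mean of 0.080 has no settled direction. C2, the protease of the classical C3 convertase, had signals of 648 in Capn6-Ko and 652 in Capn6-Wt (0.0089 ± 0.092). C4b, which supplies the other part of that enzyme, was dim, with 36.8 in Capn6-Ko and 40.2 in Capn6-Wt (-0.11 ± 0.28). C4b and C1ra have close copies in the mouse genome (C4a, C1rb), and the files do not show whether a probe tells them apart. Masp1, a protease of the lectin pathway, was not well above background on either array, with signals of 3.45 in Capn6-Ko and 3.81 in Capn6-Wt.

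C3 and the alternative pathway were higher in 4 of 4 genes, with a median difference of 0.25. The median was 0.11 with normexp background correction and 0.14 over the 2 genes with a probe above the median level, C3 and Cfp. C3, the component on which all pathways converge, has a 10-spot probe with signals from 2175 to 2318 on the Capn6-Ko array (median 2257) and from 1873 to 2059 on the Capn6-Wt array (median 1995). As for C1qc, no spot of C3 on the Capn6-Ko array fell within the range of the Capn6-Wt spots, and the probe was at 0.19 ± 0.026. A second C3 probe, with 1473 in Capn6-Ko and 1374 in Capn6-Wt, was at 0.12 ± 0.080, which brings the gene to 0.16 ± 0.042. Cfp encodes properdin, which stabilises the alternative convertase, and had signals of 8113 in Capn6-Ko and 7490 in Capn6-Wt (0.13 ± 0.079). Spots repeat the same RNA on the same array, so the spot SDs of C1qc and C3 cover these RNA pools only.

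**Figure D2:**
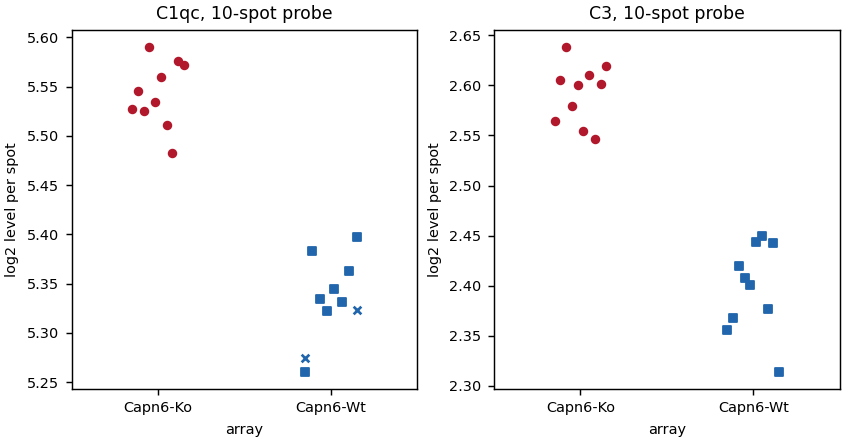
Log2 level (with the 75th percentile of each array at 0) of each spot of the C1qc probe and of the C3 probe that are printed 10 times, on the Capn6-Ko array (left, circles) and the Capn6-Wt array (right, squares). Crosses are the 2 flagged C1qc spots left out, and on either probe every Capn6-Ko spot lies above every Capn6-Wt spot.

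Cfb and Cfd, the protease of the alternative convertase and the enzyme that activates it, passed the set size on dim probes. Cfb had signals of 58.5 in Capn6-Ko and 46.9 in Capn6-Wt, a difference of 0.34 ± 0.23. Cfd, also known as adipsin, had 21.5 in Capn6-Ko and 17.2 in Capn6-Wt, close to the lowest signal well above background on that array (16.6), and was at 0.34 ± 0.33. Both differences were under 2 spot SDs. With normexp, which starts from the median spot signals and adds an offset of 50, they stood at 0.088 (Cfb) and 0.030 (Cfd).

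The C3 promoter is shown because C3 was read from more spots than any other member. It holds a match to the C/EBP core (TTGCNNAA) and, within the 50 bases after the gene start, a match to the TATA box letters (TATAAA).
C3 (chr17:57228087-57228386, reverse strand): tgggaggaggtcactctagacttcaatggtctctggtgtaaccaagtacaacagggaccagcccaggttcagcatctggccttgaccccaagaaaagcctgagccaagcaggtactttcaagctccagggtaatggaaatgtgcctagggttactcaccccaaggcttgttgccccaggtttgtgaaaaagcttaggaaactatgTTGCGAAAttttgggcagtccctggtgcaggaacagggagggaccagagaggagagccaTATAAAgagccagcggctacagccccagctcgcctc

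Both anaphylatoxin receptors, through which C3a and C5a act on myeloid cells, were higher in Capn6-Ko. C5ar1, the C5a receptor, had signals of 1568 in Capn6-Ko and 1209 in Capn6-Wt, a difference of 0.39 ± 0.080 or 1.31-fold. It was the only complement gene above the median level of measured genes to pass the set size, which 0.684% of genes in that range did upward and 0.886% downward. C3ar1, the C3a receptor, had 5402 in Capn6-Ko and 4789 in Capn6-Wt (0.19 ± 0.075). Under the 11 other settings of the processing C5ar1 stayed between 0.39 and 0.46. It has 1 probe with 1 spot per array, so settings that only change which probes or spots enter could not move it. The promoter window of C5ar1 in RefSeq holds none of the 7 motifs.

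Regulators of complement differed little gene by gene, with 4 of 5 higher and a median difference of 0.10. Cr1l, the rodent membrane inhibitor of C3 convertases known as Crry, had signals of 7638 in Capn6-Ko and 7141 in Capn6-Wt (0.12 ± 0.078). Cd55, which speeds the decay of convertases, was dim at 45.9 in Capn6-Ko and 40.0 in Capn6-Wt (0.22 ± 0.26). Cd59a, which blocks the membrane attack complex, had 169 in Capn6-Ko and 159 in Capn6-Wt (0.10 ± 0.14). Apart from Cr1l, these differences lie inside the spot error. Serping1, the C1 inhibitor, was read by a probe at 89.8 in Capn6-Ko and 82.1 in Capn6-Wt (0.15 ± 0.16) and by one at 185 in Capn6-Ko and 183 in Capn6-Wt (0.037 ± 0.13). C1qbp, a C1q-binding protein that resides mostly in mitochondria, had 11797 in Capn6-Ko and 12207 in Capn6-Wt (-0.031 ± 0.083).

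**Figure D3:**
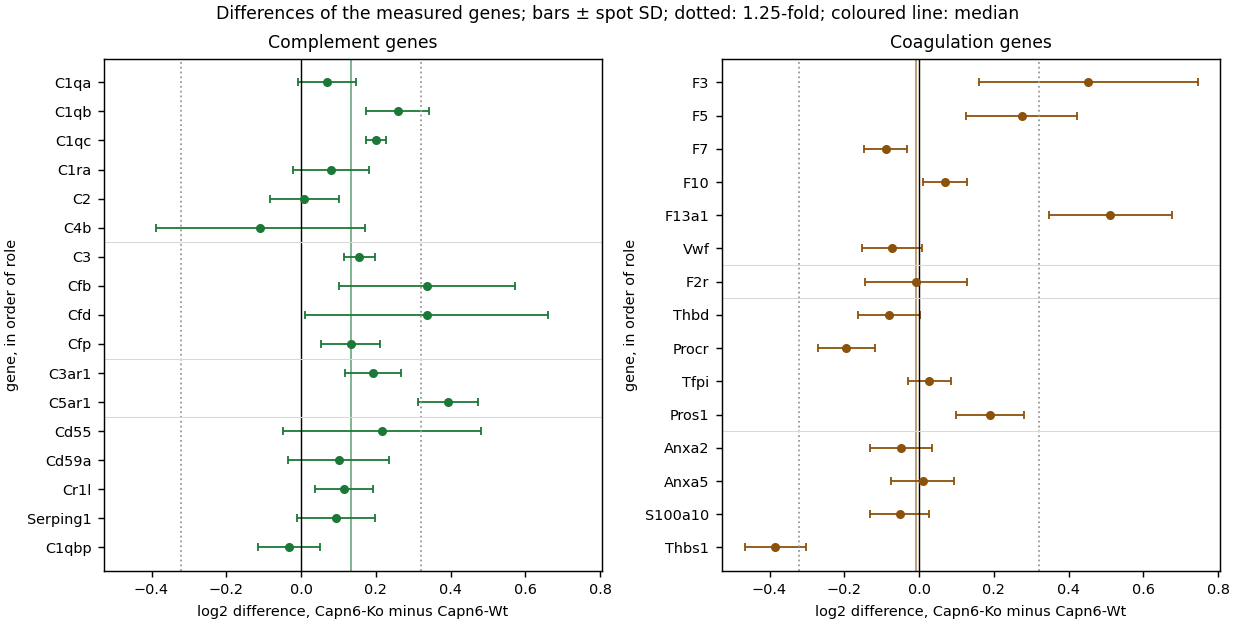
Log2 difference, Capn6-Ko minus Capn6-Wt, of the 17 measured complement genes (left) and the 15 measured coagulation genes (right), with bars of ± 1 spot SD. Dotted lines mark the set size of 0.32 and the coloured line is the median of the panel, 0.13 for complement and -0.0077 for coagulation.

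Among the clotting factors, the differences ran from 0.51 to -0.089 with a median of 0.17 over 6 measured genes. That median rests on dim probes: it was -0.0013 over the 4 genes with a probe above the median level, and 0.26 with probes well above background on at least 1 array. F13a1, the subunit of factor XIII that cross-links fibrin and that monocytes and platelets carry, has a bright probe with signals of 3998 in Capn6-Ko and 3177 in Capn6-Wt (0.35 ± 0.078). Its dim probe had 34.8 in Capn6-Ko and 22.1 in Capn6-Wt (0.67 ± 0.32). The probes differ in size but not in direction, and their gap of 0.32 is about the spot SD of the gap, 0.33. On the bright probe alone F13a1 was 1.27-fold higher in Capn6-Ko, while with normexp the mean of both probes was 0.28.

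F3 encodes tissue factor, the membrane protein that starts coagulation. Its measured probe was dim, with 40.6 in Capn6-Ko and 30.0 in Capn6-Wt (0.45 ± 0.29), and its other probe, at 12.5 in Capn6-Ko and 12.7 in Capn6-Wt, was not well above background on either array. With every probe kept, F3 stood at 0.23. F5, the cofactor of factor Xa, had a measured probe at 136 in Capn6-Ko and 113 in Capn6-Wt (0.28 ± 0.15). A further F5 probe passed the background criterion in Capn6-Ko but not in Capn6-Wt, so it was not counted as measured. Its signals were 32.2 in Capn6-Ko and 21.4 in Capn6-Wt, a fold of 1.53 (0.61 ± 0.33). F5, at 0.28, and C1qb, at 0.26, were the members nearest below the set size, and Cfd and Cfb the nearest above it.

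The vitamin K-dependent proteases F7 and F10, which neighbour each other on chromosome 8, and Vwf were near equal. F10, activated factor X being the enzyme that makes thrombin, had probes at 2615 in Capn6-Ko and 2476 in Capn6-Wt (0.097 ± 0.084) and at 14466 in Capn6-Ko and 14216 in Capn6-Wt (0.043 ± 0.083). F7, the partner of tissue factor, had probes at 1555 in Capn6-Ko and 1636 in Capn6-Wt (-0.055 ± 0.081) and at 1622 in Capn6-Ko and 1788 in Capn6-Wt (-0.12 ± 0.082). Thus F7 was slightly lower on both of its probes and F10 slightly higher on both of its probes. Vwf, the carrier of factor VIII and bridge for platelets, had 8632 in Capn6-Ko and 9193 in Capn6-Wt (-0.073 ± 0.080). Vwf is a textbook endothelial and megakaryocyte gene, and of 10 endothelial markers on the array 5 were measured (median -0.059, summed level 9.58 times the 75th percentile in Capn6-Ko and 9.74 in Capn6-Wt), while Cdh5, Cldn5, Emcn, Tek and Tie1 were not well above background. The summed level of the 10 megakaryocyte and platelet markers was 38.3 in Capn6-Ko and 34.6 in Capn6-Wt, and their part in the F13a1, F5 and Vwf values was not tested.

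Promoters of F13a1 and F3, the coagulation genes with the largest differences upward, are shown with that of Procr, which was lower. The F13a1 window, one of 2 listed starts, holds 1 PU box, and the other start holds 2. F3 holds 2 AP-1 matches (TGANTCA) and, within the 50 bases after the gene start, 1 TATA match on the other strand. Procr holds 1 AP-1 and 1 C/EBP match.
F13a1 (chr13:37049164-37049463, reverse strand): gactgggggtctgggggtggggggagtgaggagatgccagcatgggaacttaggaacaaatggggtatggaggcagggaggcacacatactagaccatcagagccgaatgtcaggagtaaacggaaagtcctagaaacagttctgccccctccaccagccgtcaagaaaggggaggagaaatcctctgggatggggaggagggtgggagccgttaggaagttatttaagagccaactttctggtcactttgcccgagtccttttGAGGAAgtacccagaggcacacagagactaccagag
F3 (chr3:121723287-121723586, forward strand): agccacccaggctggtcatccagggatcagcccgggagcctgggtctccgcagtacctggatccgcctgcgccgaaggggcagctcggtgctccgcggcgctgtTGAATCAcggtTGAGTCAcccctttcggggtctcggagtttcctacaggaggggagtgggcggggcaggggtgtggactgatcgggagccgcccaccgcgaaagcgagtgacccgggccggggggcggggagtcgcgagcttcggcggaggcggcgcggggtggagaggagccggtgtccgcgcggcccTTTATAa
Procr (chr2:155750967-155751266, forward strand): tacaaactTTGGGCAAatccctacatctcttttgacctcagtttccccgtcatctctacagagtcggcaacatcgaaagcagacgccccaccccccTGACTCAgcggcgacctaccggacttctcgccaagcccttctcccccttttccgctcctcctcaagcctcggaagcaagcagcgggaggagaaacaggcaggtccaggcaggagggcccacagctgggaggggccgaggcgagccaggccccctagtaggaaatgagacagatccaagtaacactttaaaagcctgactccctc

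Of the protease-activated receptors, which thrombin and related proteases switch on by cleavage, only F2r could be compared. F2r (PAR1) had signals of 160 in Capn6-Ko and 163 in Capn6-Wt, a difference of -0.0077 ± 0.14. F2rl1 (PAR2) at 3.68 in Capn6-Ko and 4.30 in Capn6-Wt, and F2rl2 (PAR3) at 6.44 in Capn6-Ko and 9.28 in Capn6-Wt, were not well above background on either array. The 3 genes lie close together on chromosome 13, with at most 1 protein-coding gene between neighbours.

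Anticoagulant genes went both ways. Procr, the endothelial protein C receptor, had signals of 5500 in Capn6-Ko and 6373 in Capn6-Wt (-0.19 ± 0.076). Pros1, protein S, had 713 in Capn6-Ko and 633 in Capn6-Wt (0.19 ± 0.092). Procr and Pros1, which belong to the same protein C system, thus lay on opposite sides by about equal amounts. Thbd, thrombomodulin, which turns thrombin toward protein C, had 2536 in Capn6-Ko and 2716 in Capn6-Wt (-0.081 ± 0.083).

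Tfpi, the inhibitor of tissue factor with factor VIIa, has 3 probes that did not share a sign. They had signals of 268 in Capn6-Ko and 256 in Capn6-Wt (0.083 ± 0.11), 465 in Capn6-Ko and 450 in Capn6-Wt (0.066 ± 0.10), and 1122 in Capn6-Ko and 1189 in Capn6-Wt (-0.065 ± 0.080). All 3 lie inside the spot error, and so does their mean, 0.028 ± 0.057. The remaining anticoagulants and inhibitors were not well above background on either array: Tfpi2 at 8.96 in Capn6-Ko and 14.6 in Capn6-Wt, Proc (protein C) at 10.9 in Capn6-Ko and 10.7 in Capn6-Wt, A2m (α2-macroglobulin) at 3.64 in Capn6-Ko and 4.17 in Capn6-Wt, and Serpind1 (heparin cofactor II) at 3.61 in Capn6-Ko and 4.17 in Capn6-Wt.

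The cell surface and platelet proteins were at nearly the same level, apart from Thbs1. Anxa2, which with S100a10 forms a receptor for plasminogen, had signals of 94160 in Capn6-Ko and 98592 in Capn6-Wt (-0.048 ± 0.083). S100a10 had 8014 in Capn6-Ko and 8412 in Capn6-Wt (-0.052 ± 0.079). Anxa5, which binds the phosphatidylserine on which clotting complexes assemble, had 90394 in Capn6-Ko and 90953 in Capn6-Wt (0.0093 ± 0.083). These bright probes differed by less than the spot error.

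Thbs1, thrombospondin-1, a matrix and platelet glycoprotein that also activates TGF-β, had 1485 in Capn6-Ko and 1964 in Capn6-Wt, a difference of -0.38 ± 0.082. It was the member furthest in the lower direction and the only member past the set size there. Beside it, 14 of 14 measured stromal fibroblast markers were lower, with a summed level of 78.6 times the 75th percentile in Capn6-Ko and 114 in Capn6-Wt; of the listed markers Lum was not well above background. Their part in the Thbs1 value was not tested. Scaled to the median of each array, Thbs1 stood at -0.32, just short of the set size.

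Set against level, complement and coagulation genes differed most clearly among the brighter genes. Above the median level of measured genes, 9 of 10 complement genes were higher in Capn6-Ko (median 0.14), against 3 of 10 coagulation genes (median -0.062). In that range 48.5% of all measured genes were higher and 51.5% lower, and the SD of the differences was 0.10. With only probes above the median level, which keep the bright F13a1 probe, 5 of 12 coagulation genes were higher (median -0.050). At or below the median level, 6 of 7 complement genes (median 0.10), C1ra with its unsettled direction among them, and 4 of 5 coagulation genes (median 0.28) were higher, where 47.1% of all measured genes were higher and 52.9% lower and the SD was 0.23. Of the 5 members past the set size upward, 4 (all but C5ar1) came from the dimmer range, in which 4.6% of all measured genes passed it upward and 10.2% downward. F13a1 is in that range through the mean of its bright and its dim probe. By a measure that allows for level, at least 2 spot SDs, 7 members were higher, where 5.15% of all measured genes were: C1qb, C1qc, C3, C3ar1, C5ar1, F13a1 and Pros1. By the same measure Procr and Thbs1 were lower, where 6.5% of all measured genes were. With 1 array per group the difference between complement and coagulation was described and not tested.

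**Figure D4:**
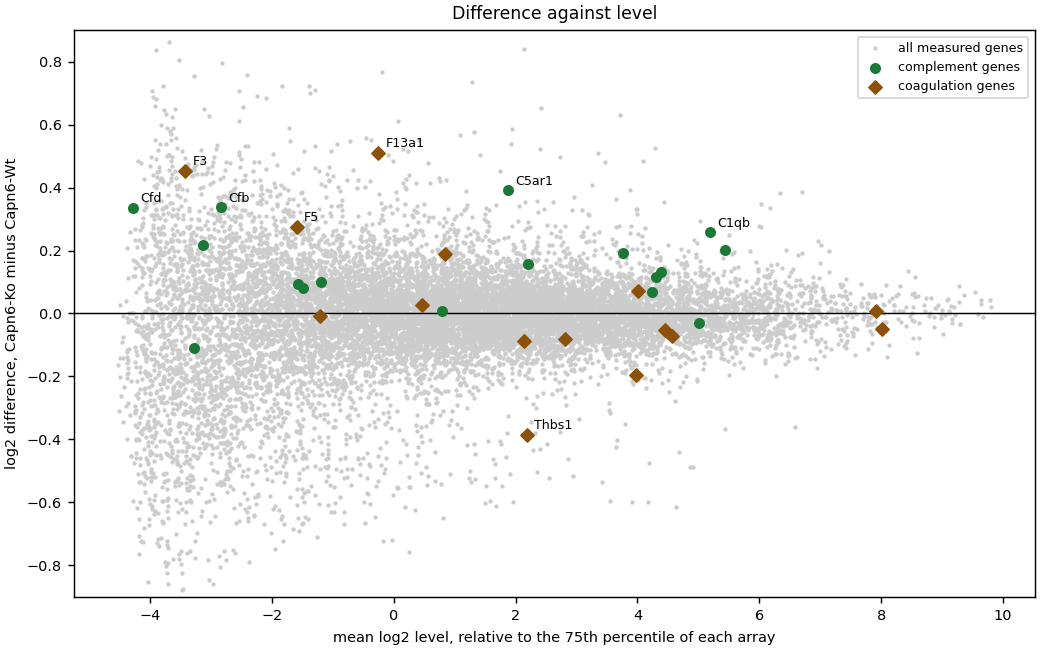
Log2 difference, Capn6-Ko minus Capn6-Wt, against the mean log2 level over both arrays for all 12875 measured genes (grey), complement genes (circles) and coagulation genes (diamonds). Axis limits of 0.9 leave out 26 grey genes; the spread widens toward low levels, where F3, Cfb and Cfd lie, while C5ar1, C1qb and Thbs1 lie among brighter genes.

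The other genes of both pathways went both ways. Of 65 further complement, coagulation and fibrinolysis genes 31 were measured, 14 higher and 17 lower, and 6 passed the set size, all of them lower in Capn6-Ko. Over all measured genes 2.64% passed it upward and 5.53% downward. Those of the 6 that are named here lie at or below the median level, where 4.6% passed it upward and 10.2% downward. Among 15 other complement genes 9 were higher, with a median of 0.033, and among 16 other coagulation and fibrinolysis genes 5 were higher, with a median of -0.11. Serpine2, an inhibitor of thrombin and plasminogen activators, had signals of 147 in Capn6-Ko and 205 in Capn6-Wt (-0.46 ± 0.13), and F9, factor IX, 109 in Capn6-Ko and 144 in Capn6-Wt (-0.38 ± 0.15).

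The 3 other complement genes past the set size were dim. C1s1, the protease that C1r activates, had 25.9 in Capn6-Ko and 36.2 in Capn6-Wt (-0.46 ± 0.31), C1s2 30.9 in Capn6-Ko and 40.0 in Capn6-Wt (-0.35 ± 0.29), and Cd55b was at -0.45 ± 0.33, a fold of 0.73. Just short of the set size was a brighter gene, named here after its values were seen: Fcna, the lectin pathway recognition protein ficolin A, had 771 in Capn6-Ko and 961 in Capn6-Wt (-0.30 ± 0.087). C1s1 and C1s2, and Cd55 and Cd55b, are close copies, and which of them a probe reads was not tested. With normexp 2 of the 6 genes were past the set size. The stromal list was lower beside these genes too, and its part in them was not tested.

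Over the promoter table, 30 windows belonged to 26 of the 39 genes, 12 complement and 14 coagulation genes. A PU box (GAGGAA) was in 12 of 30 windows, against 28.3% of all 32851 windows, and in 5 complement and 5 coagulation genes. An AP-1 match (TGANTCA) was in 8 windows, against 7.81% of all, namely in 2 complement genes (C1qbp and C3ar1) and 6 coagulation genes (Anxa2, F2r, F2rl2, F3, Procr and Tfpi2). C/EBP (TTGCNNAA) matched 4 windows against 10.8% of all, TATAAA 5 against 13.6%, the STAT core TTCNNNGAA 2 against 8.3%, and the interferon-stimulated response element core 1 against 3.44%. The NF-kB motif matched 0 windows, against 0.411% of all. Genes with an AP-1 match included F3, which was higher, Procr, which was lower, and Anxa2, which was near equal. The 7 motifs were chosen after a look at these promoters, and both strands were searched. A match describes letters in the window, not a binding site, and no match says nothing of the factor.

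**Figure D5:**
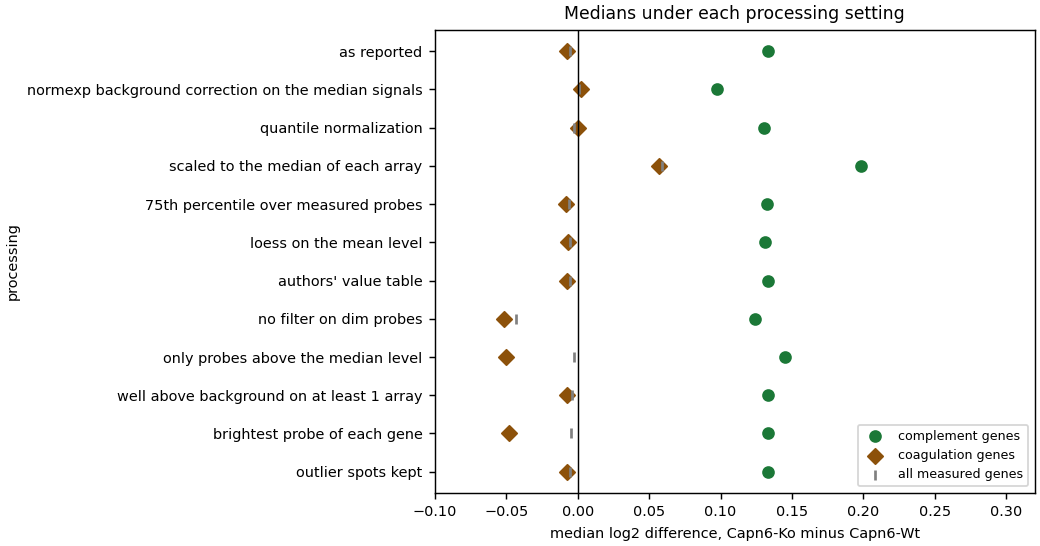
Median log2 difference, Capn6-Ko minus Capn6-Wt, of the complement genes (circles), the coagulation genes (diamonds) and all measured genes (bars) as reported and under 11 other settings of the processing. The complement median lies between 0.097 and 0.20 in the other settings and the coagulation median between -0.052 and 0.057.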

How the data were processed

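mRNA was measured on 1 Agilent 1-colour array (Cy3) per group. Per the file headers, the processed intensity of every spot came from version 10.10.1.1 of Agilent's Feature Extraction, on a probe design annotated on mm9. The authors' value table is the same intensity times 1 constant per array, 2.42 for Capn6-Ko and 2.39 for Capn6-Wt (column medians 50.7 and 53.0), which was not stated but found by setting it against the scanner files.

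Control spots and spots flagged as outliers (136 on the Capn6-Ko array, 161 on the Capn6-Wt array) were left out. Probes were named through RefSeq accessions in a gene table of GRCm38.p6, which matched 27232 of 55678 probes. The ± comes from 263 probes with at least 5 spots on each array, in 8 bins of level, scaled to the spots and probes of the gene. Single arrays allow no test. Precision is limited by having 1 array per group. The analysis ran in Python 3.11.15 (numpy 2.4.6, pandas 2.3.3) and R 4.3.3 (limma 3.58.1 for normexp, quantile normalization and loess) and was tested on simulated data. The 39 genes, their roles, the other lists and the set size (0.32 on the log2 scale) were chosen with earlier results of these data known. All 39 members are named; other pathway genes are named only past that size, 1 of them is not reported here, and Fcna, C5ar2, and the Anxa and S100a relatives in the closing section were chosen after their values were seen. Normexp used the median spot signal, since the files hold no mean signal; 10 further settings were tried.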

Additional observations from a re-analysis of the deposited data

How the results depend on the processing

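In all 11 other settings the complement median stayed above 0 (0.097 to 0.20), while the coagulation median lay on either side of 0 (-0.052 to 0.057). With each array scaled to its median, which moves the median of all genes to 0.059, 16 complement and 10 coagulation genes were higher. The counts depended on dim probes: 1 member passed the set size upward with normexp and 2 with only probes above the median level, instead of 5. Lower by that size were 0 members with median scaling and 3 with no filter on dim probes, instead of 1. With only probes above the median level 10 complement genes remained measurable, and 9 were higher, against 5 of 12 coagulation genes. Of the other pathway genes, 9 passed the set size upward with no filter and 2 with probes well above background on at least 1 array, instead of 0, and 2 passed it downward with normexp and 1 with only brighter probes, instead of 6. Without the filter C1s2 turned to 0.70. Over all measured genes 340 passed it upward and 712 downward; normexp gave 81 and 196, no filter 1667 and 2590, only brighter probes 73 and 109. Median scaling gave 558 higher, and 1 array above background 615 higher. The filters change which probes enter, and median scaling moves every gene by 1 constant, by construction. Normexp changed the starting signal, the background method and the offset together, and which of these moved the counts was not tested. The clotting factor median was -0.0013 with only brighter probes and 0.26 with 1 array above background, and that of C3 and the alternative pathway 0.11 with normexp and 0.14 with only brighter probes. The brightest probe alone put C1ra at -0.12 and Tfpi at -0.065. No paired analysis was possible because each group is 1 array, and no replicate could be left out. Signal near background limits Cfb, Cfd, F3, Cd55 and C4b.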

Other observations

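C5ar2, the second receptor for C5a, was higher beside C5ar1, at 0.24 ± 0.072, with signals of 470 in Capn6-Ko and 403 in Capn6-Wt. Some relatives of the annexin and S100 members differed more than the members did, and others as little. Of 10 measured annexins, Anxa8 was the lowest, with signals of 77.9 in Capn6-Ko and 108 in Capn6-Wt (-0.46 ± 0.11), and Anxa9 the highest, with 520 in Capn6-Ko and 439 in Capn6-Wt (0.27 ± 0.10). Anxa1, an anti-inflammatory phospholipid-binding protein, had 39026 in Capn6-Ko and 36739 in Capn6-Wt (0.11 ± 0.059). Among 12 measured S100a genes, S100a4, a calcium-binding protein of motile cells, had 44464 in Capn6-Ko and 34493 in Capn6-Wt (0.38 ± 0.059). S100a11 had 4958 in Capn6-Ko and 4315 in Capn6-Wt (0.22 ± 0.074), and S100a16 had 520 in Capn6-Ko and 656 in Capn6-Wt (-0.32 ± 0.068). The neutrophil calprotectin genes S100a8 (-0.016 ± 0.079) and S100a9 (-0.049 ± 0.083) were within the spot error. These genes were picked after their values were seen, and nothing was tested on them.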
